A study of Bos taurus with 8 samples.

Results

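The 9 genes described here act on the cell cycle, most of them in its G1 phase. They are the D-type cyclins CCND1 (ENSBTAG00000017514), CCND2 (ENSBTAG00000016649) and CCND3 (ENSBTAG00000010106), the CIP/KIP inhibitors CDKN1A (ENSBTAG00000008353), CDKN1B (ENSBTAG00000018254) and CDKN1C (ENSBTAG00000031184), the INK4 inhibitors CDKN2B (ENSBTAG00000051567) and CDKN2C (ENSBTAG00000011059), and GADD45A (ENSBTAG00000013860). They were taken by gene symbol from the 21880 genes of the count matrices, and each symbol matched 1 gene. Cells came from skeletal muscle of 10 Belgian Blue cattle, calves and adults of both sexes with no genetic change, whose ages were not separated here. The 5 timepoints were digested muscle (Muscle), the adherent cells grown from it for 72 h without serum (P0), and the same cultures at passages 2, 5 and 8 (P2, P5, P8). Donor 3 was measured in muscle alone. The labels of the P0 samples name SCs, FAPs and unsorted cells together, whereas the methods describe unsorted cells, and all P0 donors were treated here as unsorted. From P2 on, donors 1, 2 and 9 were grown unsorted, donors 5, 6 and 10 as cells sorted for satellite cells (SCs, the muscle stem cells), and donors 4, 7 and 8 as cells sorted for fibro-adipogenic progenitors (FAPs, the mesenchymal cells of muscle). Per the study's methods, P0 cells and unsorted cultures grew on fibronectin, SC cultures on laminin and FAP cultures on collagen I. Between kinds of culture, effects of sorting, of coating and of the donors therefore cannot be told apart. Each timepoint was 1 droplet library holding the pooled cells of its donors, so an effect of the timepoint and an effect of its library cannot be told apart.

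D-type cyclins bind CDK4 and CDK6 and carry signals from growth factors to the retinoblastoma proteins, whose phosphorylation releases the E2F factors that start DNA synthesis. INK4 proteins bind CDK4 and CDK6 directly, whereas CIP/KIP proteins also bind CDK2 with its cyclins. CDKN1A (p21) is a target of the p53 pathway and is induced in differentiating myoblasts. CDKN1B (p27) is high in resting cells of many tissues, and CDKN1C (p57) is an imprinted gene that works with CDKN1A in the cell cycle exit of myoblasts. GADD45A is a stress-induced protein that binds PCNA and CDK1 and slows the cycle. Resting SCs in muscle leave quiescence when placed in culture, and their progeny withdraw from the cycle again when MYOG, the transcription factor myogenin, starts terminal differentiation.

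Levels are given as CPM, the unique molecular identifiers (UMIs) of a gene summed over all cells of 1 deposited type from 1 donor and scaled to the same total of UMIs in every such sum, for sums of at least 10 cells. They count 3′ tags, so they were not divided by gene length. A difference is a log2 fold change from a negative binomial fit over all genes, with its standard error (SE) and a p adjusted over all genes of the fit. A gene was called where the adjusted p was below 0.05 and the absolute log2 fold change above 1, that is a change of over 2-fold. "Rose" and "fell" are used of called genes, or of genes past the adjusted p alone where this is said.

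The libraries held 2772 to 10405 cells of known type, with a median of 4184 UMIs per cell in muscle and 18340 to 27240 in the cultures, and 129 of 36000 cell barcodes occurred in 2 or more libraries. The deposited types were checked against defining markers. Summed over PDGFRA, DCN, LUM, COL1A1, COL3A1 and DPT, FAPs of muscle held 29410 to 45595 CPM per donor against 434 to 1957 CPM in SCs, and at P0 4563 to 8130 against 1847 to 2935 CPM. Summed over PAX7, MYF5, MYOD1, ITGA7, NCAM1 and DES, SCs held 1172 to 2493 CPM in muscle and 150 to 346 CPM at P0, against 121 to 299 and 21.0 to 32.0 CPM in FAPs. The set does not single out SCs, since SMMCs (smooth muscle and mesenchymal cells) held 406 to 3695 CPM of it in muscle and at P0 a median of 329 CPM, above the 177 CPM of SCs, although their PAX7 and MYOD1 were at 0 in muscle and their MYOD1 at P0. VECs held 3012 to 4127 CPM of their 6 markers in muscle and 2082 to 3048 CPM at P0. FAP-labelled cells of the SC cultures stood apart at P5, with 8309 to 11393 CPM of the FAP markers against 42393 to 56624 CPM in the FAP cultures. SCs of the same SC cultures held 6949 to 9583 CPM, which overlaps them. By the SC markers the types of these cultures stayed apart, with 16.0 to 100 CPM in the FAP-labelled cells and 802 to 1229 CPM in SCs. At P2 the FAP-labelled cells of the SC cultures held 6464 and 7802 CPM, inside the 5902 to 10796 CPM of SCs of the unsorted cultures, while their SC markers were at 32.0 and 107 CPM against 518 to 1219 CPM in SCs of the SC cultures. Tests of SCs against FAPs at P2 and P5 that include these cells are therefore also given for the unsorted cultures alone. The type labels were made from clusters of these same cells, so tests of SCs against FAPs are not independent of the labels.

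The 9 genes fell into very different ranges. In muscle, CDKN1C stood highest among them in SCs (959 ± 797 CPM, SD, n = 10 donors), vascular endothelial cells (VECs, 921 ± 388 CPM, n = 10) and FAPs (495 ± 233 CPM, n = 10). CDKN2B was close to nothing, with 0 UMIs in muscle FAPs and SCs, 3 UMIs in the other types of muscle with a value, and 939 UMIs in all 5 libraries, whereas CCND1 reached 225193 UMIs. The map of mean levels shows CDKN1B and CDKN1C high in muscle and low at P0, and CCND1 and CCND2 high in the passaged SCs.

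**Figure D1:**
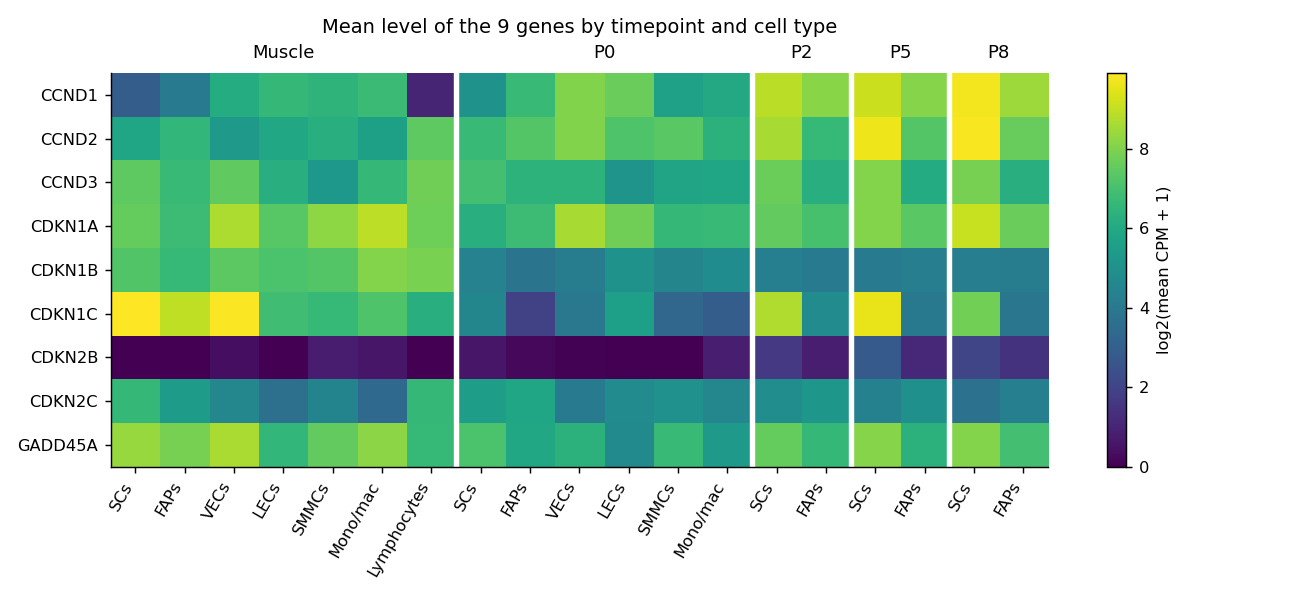
Mean level of each of the 9 genes, as log2(mean CPM + 1), by timepoint and deposited cell type (types with at least 3 donors); Mono/mac are monocytes and macrophages. CDKN1C went from 959 CPM in muscle SCs to 22.3 CPM at P0 and 769 CPM at P5, while CCND1 went from 6.66 to 32.9 and 551 CPM.

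The first comparison asked how the brake and the accelerator of the cell cycle changed when cells left the muscle and grew for 72 h. All 3 CIP/KIP genes were measured in 6 cell types. CDKN1B fell in each of the 6, CDKN1A fell in 3 of them, and CCND1 and CCND2 rose in some types only. CDKN1C was also called lower in each of the 6. Its call in lymphatic endothelial cells rested on 1 donor, and in SMMCs and in monocytes and macrophages few of its UMIs were left at P0. The share of all tested genes that was called in these comparisons was large, at 43.4% in FAPs (9208 genes), 34.3% in SCs (5221), 35.1% in VECs (5896), 36.4% in SMMCs (3454), 34.6% in monocytes and macrophages (2896) and 29.6% in lymphatic endothelial cells (LECs, 3034). Against these shares, 4 of 8 tested members were called in FAPs, 5 of 7 in SCs, 6 of 8 in VECs, 4 of 6 in SMMCs, 4 of 7 in monocytes and macrophages and 4 of 6 in LECs. Over the members tested, the median log2 fold change was -0.05 in FAPs and -1.27 in SCs, beside 0.03 and -0.01 over all genes.

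In every type but LECs, CDKN1C showed the widest change of the members tested. In muscle SCs its level per donor ran from 71.7 over a median of 621 to 2629 CPM, and at P0 from 4.54 over 16.3 to 62.4 CPM. In FAPs the levels were 158, 506 and 899 CPM (lowest, median and highest) in muscle and 1.49, 2.91 and 5.05 CPM at P0. The lowest muscle donor thus lay above the highest P0 donor in both types. The fall was 7.30 on the log2 scale in FAPs (SE 0.38, adjusted p = 1.0e-12) and 5.48 in SCs (SE 0.62, adjusted p = 2.6e-07). VECs went from a range of 418 to 1415 CPM to one of 11.3 to 21.6 CPM, a log2 fold change of -6.03 (SE 0.28), and SMMCs from 38.3 to 215 CPM to 3.17 to 17.7 CPM, a change of -3.91 (SE 0.34). Monocytes and macrophages had 88.7 to 288 CPM in muscle and 0 to 13.7 CPM at P0, with only 7 UMIs in all at P0. SMMCs had 35 UMIs in all at P0. In both of these types CDKN1C passed the count filter through muscle alone. When all sums were thinned to the smallest one, it could not be tested in either.

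LECs kept the highest CDKN1C level of the types at P0. Their 4 muscle donors had 71.3, 92.1, 75.9 and 223 CPM and their 7 P0 donors 22.8 to 92.9 CPM, so the groups overlapped. The log2 fold change was -1.36 (SE 0.43, adjusted p = 0.012). It rested on donor 10, whose 12 muscle LECs gave the 223 CPM: without this donor the change was -0.75 with an adjusted p of 0.24, and without donor 1 or 9 the gene did not pass the filter. With DESeq2 the adjusted p was 0.050 and the call was lost, as it was with no filter on low counts (-0.95, adjusted p = 0.056).

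CDKN1B moved more evenly. Muscle SCs held 107 to 188 CPM (median 146) and P0 SCs 16.6 to 23.4 CPM (median 20.3), and muscle FAPs held 54.2 to 118 CPM against 11.5 to 15.4 CPM at P0. In none of the 6 types did the donors of the 2 timepoints overlap. The log2 fold changes were -2.89 in SCs (SE 0.12, adjusted p = 8.6e-17), -2.79 in FAPs (SE 0.13), -3.28 in VECs (SE 0.15), -2.68 in SMMCs (SE 0.18), -3.37 in monocytes and macrophages (SE 0.25) and -2.24 in LECs (SE 0.37). In P0 FAPs it had the smallest spread between donors relative to its mean among the members, at 12.9 ± 1.22 CPM (SD, n = 9).

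CDKN1A differed between types. In SCs it went from 74.5 to 376 CPM (median 187) in muscle to 34.4 to 165 CPM (median 65.2) at P0, a fall of 1.42 on the log2 scale (SE 0.31, adjusted p = 0.00042) with overlapping ranges, and it was lower at P0 in 8 of the 9 donors measured at both timepoints. FAPs held 70.3 to 188 CPM in muscle and 59.7 to 166 CPM at P0, and the log2 fold change was 0.03 (SE 0.23, adjusted p = 0.91). VECs likewise stayed within their spread, at 407 ± 173 CPM (n = 10) in muscle and 394 ± 73.8 CPM (n = 9) at P0. Monocytes and macrophages fell from 253 to 740 CPM to 28.4 to 228 CPM (log2 fold change -2.26, SE 0.28), and SMMCs by 1.63 (SE 0.25). In the monocytes and macrophages other markers moved as well: the sum of their own 6 markers was 7313 to 19613 CPM in muscle and 950 to 2051 CPM at P0, and that of 4 neutrophil markers had a median of 187 CPM in muscle (4.93 to 5108) and of 7030 CPM at P0 (3683 to 9598). Their part in the changes of this type was not tested. The phase makeup of the cells moved beside this gene: the share of cells labelled G1 had a median over donors of 61.7% in muscle FAPs and 22% in P0 FAPs, and of 43.0% and 38.3% in SCs. Of all muscle SCs 42.5% were labelled S and 16.2% G2M, and of muscle FAPs 34.6% S, at a median of 4184 UMIs per cell in muscle. Whether the labels mark cycling cells at that depth was not tested, so fits of G1-labelled muscle cells may not compare cells of 1 phase. Among cells labelled G1 alone, CDKN1A rose in FAPs by 1.53 (SE 0.32, adjusted p = 0.00031), while in SCs the change was -0.65 (adjusted p = 0.16) and no longer called.

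GADD45A, the stress-induced gene, fell in 5 of the 6 types. In VECs it went from 257 to 487 CPM to 64.5 to 103 CPM (log2 fold change -2.31, SE 0.11, adjusted p = 3.3e-16), and in FAPs from 139 to 339 CPM to 45.1 to 81.4 CPM (-1.84, SE 0.14), in both with no overlap. SCs held 142 to 594 CPM in muscle and 102 to 207 CPM at P0, which overlapped, with a change of -1.27 (SE 0.21, adjusted p = 1.4e-05). Among G1-labelled SCs alone that change was -0.49 (adjusted p = 0.057), and with no filter on low counts -0.90, neither of them a call. In SMMCs the change of -0.89 (SE 0.20, adjusted p = 0.00042) passed the adjusted p and not the fold threshold.

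Of the INK4 inhibitors only CDKN2C, which encodes p18, had enough counts to test. Muscle SCs held 30.7 to 174 CPM (median 96.4) and P0 SCs 37.6 to 54.5 CPM (median 45.8), so P0 lay inside the wide muscle range. The fall in SCs was 1.19 (SE 0.18, adjusted p = 2.6e-06), but with DESeq2 it was 0.92 and with no filter 0.83, both under the fold threshold. FAPs went the other way by 0.65 (SE 0.17, adjusted p = 0.0016, not called), from 18.9 to 77.6 CPM to 40.0 to 69.9 CPM. When all FAP sums were thinned to the smallest one, that difference was -0.0034 (adjusted p = 0.99).

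CCND1 and CCND2 rose in part of the types and CCND3 in none. CCND1, which answers to growth factors, had 3.18 to 37.9 CPM in muscle FAPs and 55.4 to 146 CPM at P0 with no overlap, a rise of 2.45 (SE 0.25, adjusted p = 1.3e-08). VECs rose by 2.01 (SE 0.37, adjusted p = 8.7e-05), from 32.5 to 188 CPM to 116 to 525 CPM. In muscle SCs only 17 UMIs of CCND1 were counted over 10 donors (0 to 25.1 CPM), too few to pass the filter, against 13.5 to 59.8 CPM at P0. Some alternatives did fit CCND1 in SCs, with 2.44 for donors as a block (SE 0.35, adjusted p = 6.1e-06) and 2.59 for DESeq2, which used no such filter. With so few UMIs in muscle the gene entered these fits through its P0 counts. They are not read as a rise. In SMMCs and in monocytes and macrophages CCND1 was lower at P0 by log2 values of -0.98 and -0.95 (adjusted p = 0.0086 and 0.0043), just short of a call, and both were called with donors as a block (-1.01 and -1.02). LECs held 44.6 to 125 CPM of CCND1 in muscle and 114 to 260 CPM at P0, with no call. It was called there with DESeq2, with no filter, with library totals and without donor 2, 4 or 8.

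CCND2, the cyclin D of many stem and progenitor cells, rose most in VECs, from 8.30 to 84.8 CPM in muscle to 89.4 to 410 CPM at P0 without overlap (log2 fold change 2.55, SE 0.36, adjusted p = 4.3e-06). SMMCs rose by 1.08 (SE 0.21, adjusted p = 7.4e-05), which with donors as a block was 0.93 and no call. LECs rose by 1.17 (SE 0.44, adjusted p = 0.034), a call that was lost without donor 1, 4, 7 or 8 (adjusted p of 0.071, 0.097, 0.086 and 0.052). FAPs and SCs had differences of 0.76 and 0.70, past the adjusted p (0.00014 and 0.029) and under the fold threshold. Both were called with no filter on low counts (1.03 and 1.06), that of FAPs also in G1-labelled cells (1.26) and that of SCs with DESeq2 (1.02). CCND3, which is bound up with muscle differentiation, fell in VECs alone among the types where it was tested (-1.12, SE 0.14, adjusted p = 3.7e-08, with -0.91 and no call without the filter).

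**Figure D2:**
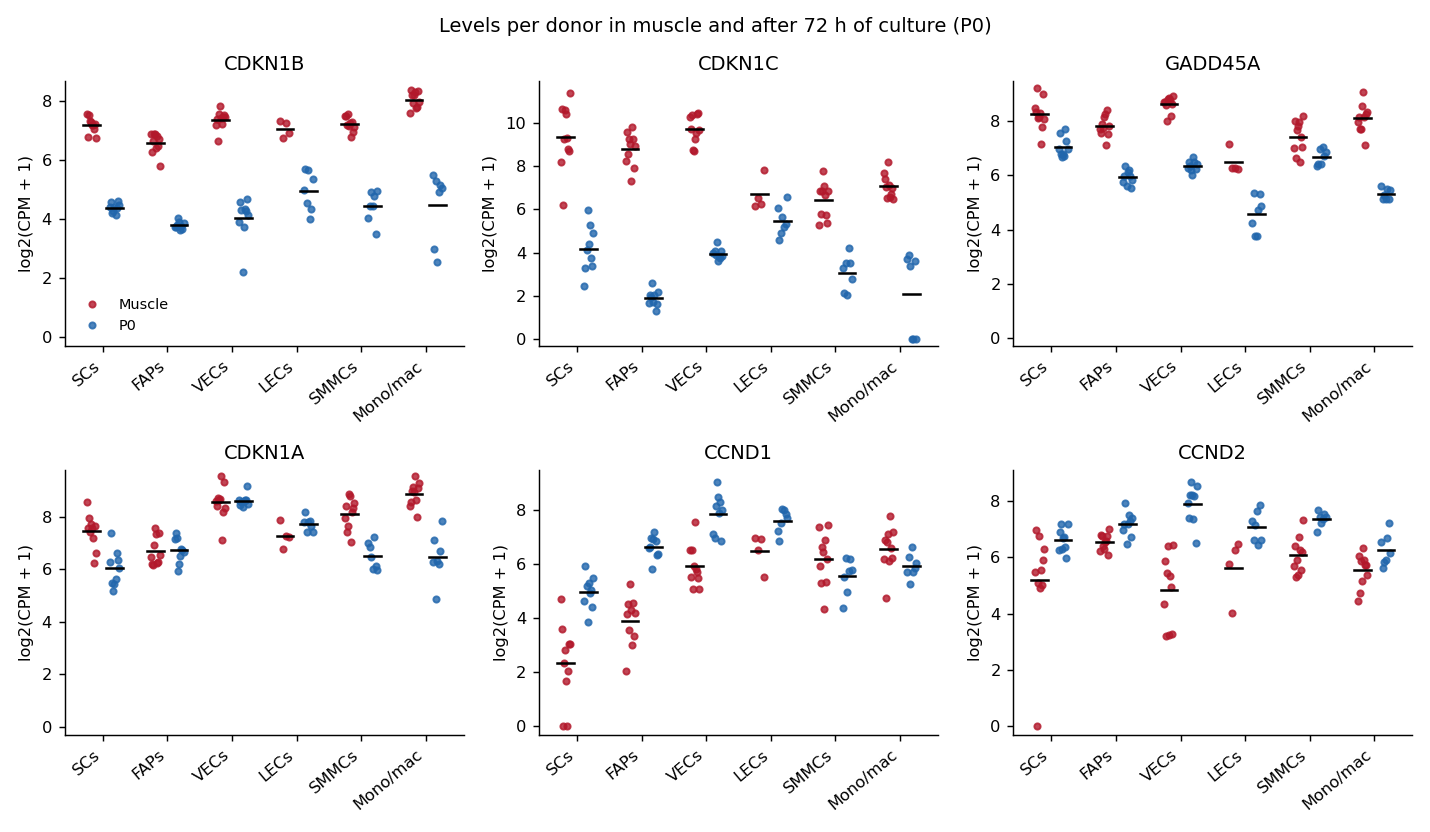
Level of 6 of the genes per donor, as log2(CPM + 1), in 6 cell types of muscle (red) and after 72 h of culture (blue); points are donors and bars are means of the plotted values. CDKN1B donors of muscle lie above those of P0 in every type, while CDKN1A overlaps in 5 of 6 types.

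The rest of the G1 and growth arrest machinery was counted from fixed lists, to be read against the 43.4% of all genes called in FAPs (1928 higher and 2069 lower) and the 34.3% in SCs (825 higher and 964 lower). Of 20 partners of the G1 phase (CDKs, cyclins E, retinoblastoma proteins, E2F factors and others), 9 rose and 3 fell in FAPs among 15 tested, with E2F8 (7.75, SE 0.30) and CCNE1 (5.55, SE 0.48) in front. In SCs only 5 could be tested, of which 1 rose and 2 fell: E2F8 rose by 2.37 (SE 0.31) and RBL2, a retinoblastoma relative of resting cells, fell by 1.90 (SE 0.17). Of 20 growth arrest and stress genes, 8 of 14 tested fell and 1 rose in FAPs, and 8 of 11 fell in SCs, where BTG2, an antiproliferative early response gene, fell by 6.18 (SE 0.25). The median log2 fold change of that list was -1.37 in FAPs and -1.94 in SCs. All 20 proliferation genes tested in FAPs rose (median 4.82), and 15 of 20 in SCs (median 1.62). Markers of myocytes moved with the timepoint too, and their part in these results was not tested: their sum over 6 genes was 288 to 870 CPM in muscle SCs and 0 to 0.449 CPM at P0, 706 to 1152 and 0.307 to 1.74 CPM in FAPs, and 251 to 862 and 0 to 1.62 CPM in VECs.

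The change on entering culture was then compared between SCs and FAPs with an interaction term, for which 20% of all 8751 genes were called. Of the 8 members tested, 3 were called. CDKN2C fell in SCs relative to FAPs by 1.63 (SE 0.26, adjusted p = 3.6e-06) and CDKN1A by 1.22 (SE 0.39, adjusted p = 0.011). CDKN1C fell less in SCs, with a difference of 2.01 (SE 0.64, adjusted p = 0.012). After thinning to the smallest sum the CDKN1C difference was 1.99 with an adjusted p of 0.34, CDKN2C could no longer be tested, and CDKN1A remained called (-1.37, adjusted p = 0.027).

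SCs and FAPs were next set side by side within each timepoint. The share of all genes called was 19.9% in muscle, 10.7% at P0, 13.2% at P2 and 15.7% at P5. Among the members, 1 of 7 tested was called in muscle, 3 of 8 at P0, and 5 of 9 at both P2 and P5. The P2 count includes CDKN2B, whose P2 call is not read, for the reason given below. At P2 and P5 all the members called were higher in SCs. The test there took donors 1, 2, 5, 6, 9 and 10, so that both types came from the same cultures. SCs and FAPs were not compared at P8, where 4 donors had enough SCs.

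In muscle the called gene was CDKN2C, at 30.7 to 174 CPM in SCs and 18.9 to 77.6 CPM in FAPs (log2 fold change 1.27, SE 0.25, adjusted p = 0.00015). Among G1-labelled cells it did not pass the filter. Another 4 members passed the adjusted p alone: CDKN1A, CDKN1B and CCND3 were higher in SCs by 0.61, 0.51 and 0.78 (adjusted p = 0.045, 0.0043 and 0.011), and CCND2 was lower by a log2 value of -0.75 (adjusted p = 0.018). The mean of CDKN1C was higher in SCs than in FAPs, but SCs were higher in 5 of 10 donors only, and the log2 fold change of 0.89 (SE 0.46) had an adjusted p of 0.11. With at least 30 cells per sum it was 1.01 (adjusted p = 0.047), a call. The muscle SCs of donors 2, 5, 6 and 10 held 1575, 1550, 1376 and 2629 CPM of CDKN1C. The remaining 6 donors held 71.7 to 636 CPM. MYOG in the same SCs was 675, 841, 1109 and 1060 CPM in those 4 donors and 0 to 301 CPM in the others, so the donors high in CDKN1C were the donors high in MYOG. That relation was noticed in the data and was not tested.

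At P0 the 2 types differed in 3 called members. CDKN1C was 4.54 to 62.4 CPM in SCs and 1.49 to 5.05 CPM in FAPs, higher in SCs in 9 of 9 donors (log2 fold change 2.95, SE 0.41, adjusted p = 1.3e-05). GADD45A was 102 to 207 CPM against 45.1 to 81.4 CPM with no overlap (1.15, SE 0.14, adjusted p = 2.0e-06). CCND1 was lower in SCs in 9 of 9 donors, at 13.5 to 59.8 CPM against 55.4 to 146 CPM (-1.68, SE 0.21, adjusted p = 2.5e-06). CDKN1B and CCND3 were somewhat higher in SCs, by 0.62 and 0.54 (adjusted p = 4.8e-06 and 0.00011), under the fold threshold. CDKN1A, CCND2 and CDKN2C were lower in SCs, with -0.66, -0.57 and -0.31 (adjusted p = 0.048, 0.016 and 0.016), also under it. Among G1-labelled cells CDKN1A was called (-1.20, adjusted p = 0.015). MYOG was at 0 to 0.549 CPM in P0 SCs except in donor 5, with 11.1 CPM, and donor 5 also had the highest CDKN1C level, 62.4 CPM.

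In the passaged cultures CDKN1C was the member furthest apart. CDKN1C at P2 was 242, 604, 790, 564, 188 and 148 CPM in SCs of donors 1, 2, 5, 6, 9 and 10. In the FAP-labelled cells of the same cultures it was 15.4, 31.2, 9.60, 19.5 and 37.3 CPM for donors 1, 2, 5, 9 and 10, while donor 6 had too few of them. The lowest SC value was thus several times the highest FAP value, and the log2 fold change was 4.17 (SE 0.54, adjusted p = 0.00028). At P5 SCs held 439 to 1330 CPM and FAPs 5.68 to 26.0 CPM (5.73, SE 0.40, adjusted p = 6.4e-07). CCND2 was 189 to 667 CPM against 79.8 to 125 CPM at P2 (1.85, SE 0.30, adjusted p = 0.001) and 434 to 1321 CPM against 157 to 265 CPM at P5 (1.86, SE 0.27, adjusted p = 0.00019). In neither case did the groups overlap. In the unsorted cultures alone (3 donors) CDKN1C and CCND2 remained called at both passages, with 3.84 and 1.39 at P2 and 5.99 and 1.09 at P5.

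CCND3 was higher in SCs by 1.39 at P2 (SE 0.29, adjusted p = 0.0049) and by 1.61 at P5 (SE 0.19, adjusted p = 3.1e-05), where its levels were 166 to 359 CPM in SCs and 70.5 to 102 CPM in FAPs. GADD45A was 146 to 235 CPM in SCs and 44.8 to 111 CPM in FAPs at P2, higher by 1.11 (SE 0.26, adjusted p = 0.0089) and by 1.59 at P5 (SE 0.18, adjusted p = 2.0e-05). The P2 difference was 0.88, and no call, without donor 5, 0.77 with at least 30 cells per sum and 0.89 in G1-labelled cells. In the unsorted cultures alone neither CCND3 (0.83, adjusted p = 0.097) nor GADD45A (0.77, adjusted p = 0.008) was called at P2, and both were at P5 (1.13 and 1.23). CDKN2B was low in both types, with 1.79 to 2.71 CPM in SCs and 0 to 0.748 CPM in FAPs at P2, and was called at P2 (1.5, SE 0.29, adjusted p = 0.0029) and P5 (1.2, SE 0.38, adjusted p = 0.027). At P5 in G1-labelled cells it was 1.06 with an adjusted p of 0.083. In the unsorted cultures alone CDKN2B was called at P2 (1.62, adjusted p = 0.0094) and at P5 (1.66, adjusted p = 0.031). At P2 the SCs of these cultures held 24 UMIs of it and the FAPs 57. In both P2 fits the gene passed the count filter through SCs alone, so nothing is read from its P2 calls. CCND1 was 0.73 higher in SCs at P2 (SE 0.15, adjusted p = 0.0051) and 0.11 at P5 (adjusted p = 0.58). CDKN1A had differences of 0.46 and 0.51 (adjusted p = 0.099 and 0.076).

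The levels of CCND1 in FAP-labelled cells of P5 lay apart by kind of culture. FAP-labelled cells of the FAP cultures of donors 4, 7 and 8 held 165, 163 and 88.8 CPM of CCND1, those of the unsorted cultures of donors 1, 2 and 9 held 517, 337 and 369 CPM, and those of the SC cultures of donors 5, 6 and 10 held 571, 532 and 576 CPM. The 3 kinds of culture did not overlap. At P2 CCND1 was 219 to 394 CPM in FAPs of the FAP cultures and 199 to 289 CPM in those of the unsorted cultures, and at P8 230 to 406 and 303 to 508 CPM, overlapping at both passages. In FAP-labelled cells of the SC cultures it was 329 and 333 CPM at P2, inside the range of the FAP cultures. At P8 it was 545 to 956 CPM there, above all values of the other 2 kinds. From P2 to P5 the mean of CCND1 went from 304 to 139 CPM in the FAP cultures and from 255 to 408 CPM in the unsorted ones. The step over both kinds together does not show this. In a fit of the FAP cultures alone over that step, 0 members were called, so the lower mean there is no call. CDKN1B was highest in the FAP cultures, at 21.9, 24.1 and 23.5 CPM, against 10.9 to 14.5 CPM in the unsorted and 7.34 to 13.5 CPM in the SC cultures, which overlapped. The summed level of 20 proliferation genes in the same cells was 154 to 248 CPM in the FAP cultures, 218 to 316 CPM in the unsorted cultures, which overlapped these, and 1012 to 1536 CPM in the SC cultures. These differences between cultures were not tested, and the part of proliferation or of the low FAP markers in them was not tested. The kinds of culture also differ in coating and in donors, which cannot be told apart from sorting.

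SCs growing in the FAP cultures of donors 4, 7 and 8 entered no comparison between types or passages, and their values at P2 are given as a description, with no test. Their CCND1 level was 681, 715 and 696 CPM against 379 to 555 CPM in the SC and unsorted cultures, and their CDKN1A level was 93.8, 104 and 112 CPM against 163 to 209 CPM. CDKN1C was 98.3, 91.3 and 162 CPM, 2 of the 3 below the 148 to 790 CPM of the others. The value of donor 8 rests on few UMIs, 38 for CDKN1A and 55 for CDKN1C. Their FAP marker sum was 8831 to 9587 CPM, above the 3291 to 8278 CPM of SCs in the SC cultures and inside the 5902 to 10796 CPM of those in the unsorted cultures. The part of these markers, of the coating or of the donors in the values was not tested.

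**Figure D3:**
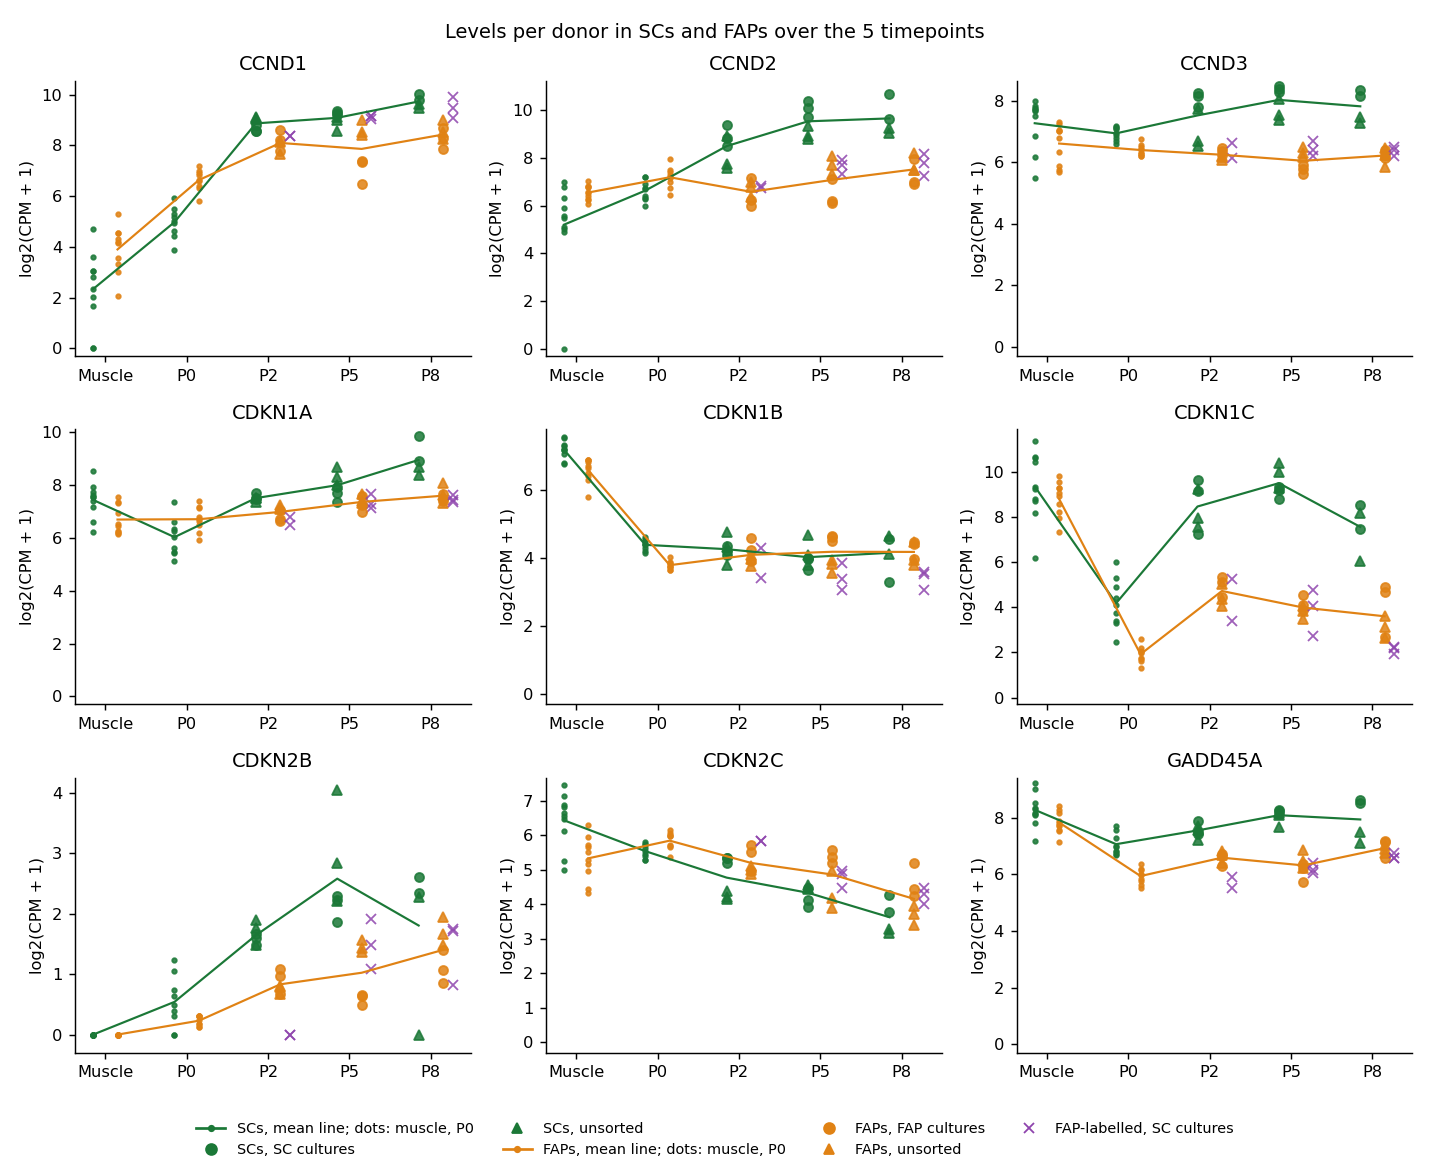
Level of each gene per donor, as log2(CPM + 1), in SCs (green) and FAPs (orange) at the 5 timepoints; lines join means of the plotted values, circles are sorted and triangles unsorted cultures from P2 on, and crosses are FAP-labelled cells of SC cultures, which enter no line. CDKN1C of SCs drops at P0 and returns to 423 CPM at P2, while that of FAPs returns only to 26.6 CPM.

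Passage was then compared step by step, in SCs of the SC and unsorted cultures and FAPs of the FAP and unsorted cultures. From P0 to P2, 8.73% of all genes were called in SCs and 23.3% in FAPs. Of the members, 4 of 8 tested rose in SCs and 3 of 9 in FAPs, and none fell by the call. The count of FAPs includes CDKN2B, which is not read, for the reason given below. CCND1 in SCs went from 13.5 to 59.8 CPM at P0 in the same 6 donors to 379 to 555 CPM at P2, a rise of 3.89 (SE 0.32, adjusted p = 7.9e-06). CDKN1C rose by 4.19 (SE 0.65, adjusted p = 0.00058), CCND2 by 2.02 (SE 0.31, adjusted p = 0.00047) and CDKN1A by 1.29 (SE 0.29, adjusted p = 0.0058). Brake and accelerator genes of SCs thus rose over the same step. The share of SCs labelled G1 had a median over these donors of 41.2% at P0 and 71.2% at P2, and the sum of the 6 myocyte markers was 0 to 0.449 CPM in P0 SCs and 29.2 to 430 CPM in SCs of the SC and unsorted cultures at P2. The part of the myocyte markers in these rises was not tested. Among G1-labelled SCs alone the change of CDKN1A was 0.63 (adjusted p = 0.22).

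In FAPs the same step brought CDKN1C from 1.49 to 3.20 CPM to 15.4 to 39.5 CPM without overlap (log2 fold change 3.56, SE 0.27, adjusted p = 1.6e-07). CDKN2B was also called, at no more than 0.241 CPM at P0 against 0.596 to 1.11 CPM at P2. With 24 UMIs in P0 FAPs of all 9 donors, it passed the count filter through P2 alone. No fold change is therefore given and nothing is read from its call. CCND1 rose by 1.5 (SE 0.16, adjusted p = 2.6e-06), from 79.2 to 146 CPM to 199 to 394 CPM. The share of FAPs labelled G1 moved with the step, from a median over these 6 donors of 23.4% to 75.7%, and all 20 proliferation genes fell (median -1.65). Within G1-labelled FAPs CCND1 changed by 0.90 (adjusted p = 0.017) and was not called, CDKN1A fell by 1.34 (adjusted p = 0.0002, against 0.19 and 0.32 among all FAPs), CCND2 fell by 1.09 (adjusted p = 0.004), CDKN2B did not pass the filter, and CDKN2C by 0.04 (adjusted p = 0.92) in place of -0.55 (adjusted p = 0.0072) among all FAPs.

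The change of CCND1 and CCND2 over this step differed between the types. An interaction term over donors 1, 2, 5, 6, 9 and 10 called 4.49% of all 11761 genes and 2 of the 9 members. The change in SCs minus that in FAPs was 2.24 for CCND2 (SE 0.37, adjusted p = 0.0012) and 2.17 for CCND1 (SE 0.35, adjusted p = 0.00081). CCND1 was higher at P2 in both types, whereas CCND2 rose in SCs alone and had -0.54 (adjusted p = 0.041) in FAPs of the FAP and unsorted cultures. CDKN1C did not pass (1.28, SE 0.76, adjusted p = 0.32). Both stayed called in every alternative run, including the fits that left out 1 donor, with differences of 2.11 to 2.44 for CCND2 and 2.06 to 2.32 for CCND1 among those fits. In the unsorted cultures alone the differences were 1.96 (adjusted p = 0.038) for CCND2 and 2.56 (adjusted p = 0.0025) for CCND1.

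Later passages, tested 1 step at a time, brought few calls. From P2 to P5, 0.195% of all genes were called in SCs and 3.34% in FAPs, and from P5 to P8 0.345% and 2.02%. No member was called in these 4 comparisons by edgeR with all cultures and no donor block, and DESeq2 called 1, CDKN1C of SCs from P5 to P8. In SC cultures alone edgeR called CDKN2C of SCs from P2 to P5 (-1.09, adjusted p = 0.015). CDKN1A of FAPs from P2 to P5 passed the adjusted p alone (0.48, adjusted p = 0.033). Before adjustment 5 members of SCs and 3 of FAPs passed 0.05 from P2 to P5, and 4 and 2 from P5 to P8. The share of all genes under that unadjusted limit is not given here, so nothing is read from these counts. CCND2 of SCs was 189 to 667 CPM at P2 and 434 to 1321 CPM at P5, a log2 fold change of 1.02 (SE 0.35, adjusted p = 0.15). With donors as a block it was 1.04 (SE 0.11, adjusted p = 0.003) and called. CDKN1C of SCs went from 439 to 1330 CPM at P5 to 288, 177, 64.3 and 367 CPM at P8 for donors 1, 6, 9 and 10, with no overlap. The log2 fold change was -1.76 (SE 0.45, adjusted p = 0.11), and with DESeq2 -1.81 (adjusted p = 0.0041), a call. The P8 sums of SCs were small, with 8 UMIs of CDKN1C in donor 9. CCND1 of SCs was 707 to 1049 CPM at P8 and 380 to 652 CPM at P5 with no overlap, higher in 4 of 4 donors, with a log2 fold change of 0.59 (SE 0.15, adjusted p = 0.085). It passed the adjusted p with DESeq2 (0.011) and with donors as a block (0.026), under the fold threshold in both. Over the same step CDKN1A of SCs had 331, 477, 410 and 940 CPM at P8 against 165 to 408 CPM at P5 (0.97, adjusted p = 0.17). Proliferation genes of FAPs moved meanwhile: 17 of 20 fell from P2 to P5 and 11 of 20 rose from P5 to P8. The whole span from P2 to P8 was not tested. Over it CDKN1A of SCs went from 163 to 209 CPM to 331 to 940 CPM without overlap. CCND1 of SCs went from 379 to 555 CPM to 707 to 1049 CPM, and CDKN1A of FAPs from 98.0 to 153 CPM to 162 to 272 CPM, also without overlap. CCND1 of FAPs and the other members in both types overlapped.

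Cells within a type were divided by the deposited phase label, beside which the authors' cell table holds an S and a G2M score whose genes are not given in the sources used here. Such scores are commonly taken from proliferation genes, so that 17 to 20 of 20 proliferation genes differed between phases is not taken as an independent result. Comparisons of phases took every donor with enough cells in both classes, whatever its culture: at P2, SCs of 7 donors entered for S and of 5 for G2M, with donor 4 of the FAP cultures in both. In P0 FAPs 4.46% of all genes were called between S and G1 and 4.95% between G2M and G1, and in P0 SCs 5.47% and 5.41%. At P2 the shares were 4.46% and 7.3% in FAPs and 3.98% and 6.12% in SCs. CDKN1A showed the clearest pattern. In P0 FAPs it was 106 to 612 CPM in G1 cells, 48.9 to 95.8 CPM in S cells and 48.7 to 86.3 CPM in G2M cells. It was lower than in G1 in 9 of 9 donors in both, with no overlap.

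The log2 fold change of CDKN1A was -2.08 in S (SE 0.28, adjusted p = 1.9e-05) and -2.34 in G2M (SE 0.28, adjusted p = 3.9e-06) in P0 FAPs, and -1.92 (SE 0.30) and -1.75 (SE 0.33) in P0 SCs, all called. At P2 the difference from G1 was smaller, at -0.73 in S-phase FAPs and -0.98 in S-phase SCs, neither of them called. A test of the difference between the timepoints was not run. CDKN1C was lower in S in all 4 groups, by -1.23 in P0 FAPs (SE 0.34, adjusted p = 0.0082), -2.11 in P0 SCs (SE 0.58, adjusted p = 0.0087), -1.23 in P2 FAPs (SE 0.22, adjusted p = 0.0013) and -2.03 in P2 SCs (SE 0.68, adjusted p = 0.072, not called). With donors as a block the last was -2.13 (SE 0.29, adjusted p = 0.0018) and called. In G2M its change was -1.19 in P0 FAPs (SE 0.35, adjusted p = 0.012) and -1.66 in P2 FAPs (SE 0.23, adjusted p = 8.4e-05), the latter from 19.8 to 42.7 CPM in G1 to 7.07 to 14.3 CPM without overlap. In G2M SCs of P2 it was -1.62 and not called, and with donors as a block -1.58 (SE 0.28, adjusted p = 0.011) and called.

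CDKN2C ran the other way. It was higher in G2M than in G1 in all 4 groups and was called in P2 SCs, where it had 54.3 to 86.5 CPM in G2M cells and 13.8 to 20.8 CPM in G1 cells of 5 donors (1.91, SE 0.17, adjusted p = 6.5e-06). In P0 SCs the difference was 0.84 (adjusted p = 3.6e-05), in P0 FAPs 0.74 (adjusted p = 0.00032) and in P2 FAPs 0.64 (adjusted p = 0.031). GADD45A fell in S-phase SCs of P0 by 1.12 (SE 0.19, adjusted p = 0.00014), with -0.98 in G2M (adjusted p = 0.00035), and had -0.42 in S-phase FAPs. CCND1 was lower in G2M than in G1 in all 4 groups, by -0.63 to -0.88, with no call. CDKN1B differed least, at -0.55 to 0.47, and no phase comparison called it. The remaining lists moved with the labels too: in S-phase P0 FAPs 10 of 18 tested G1 partners rose and 6 of 14 tested growth arrest genes fell. Genes of these lists may be among those of the phase scores, so these counts are not taken as an independent result either.

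**Figure D4:**
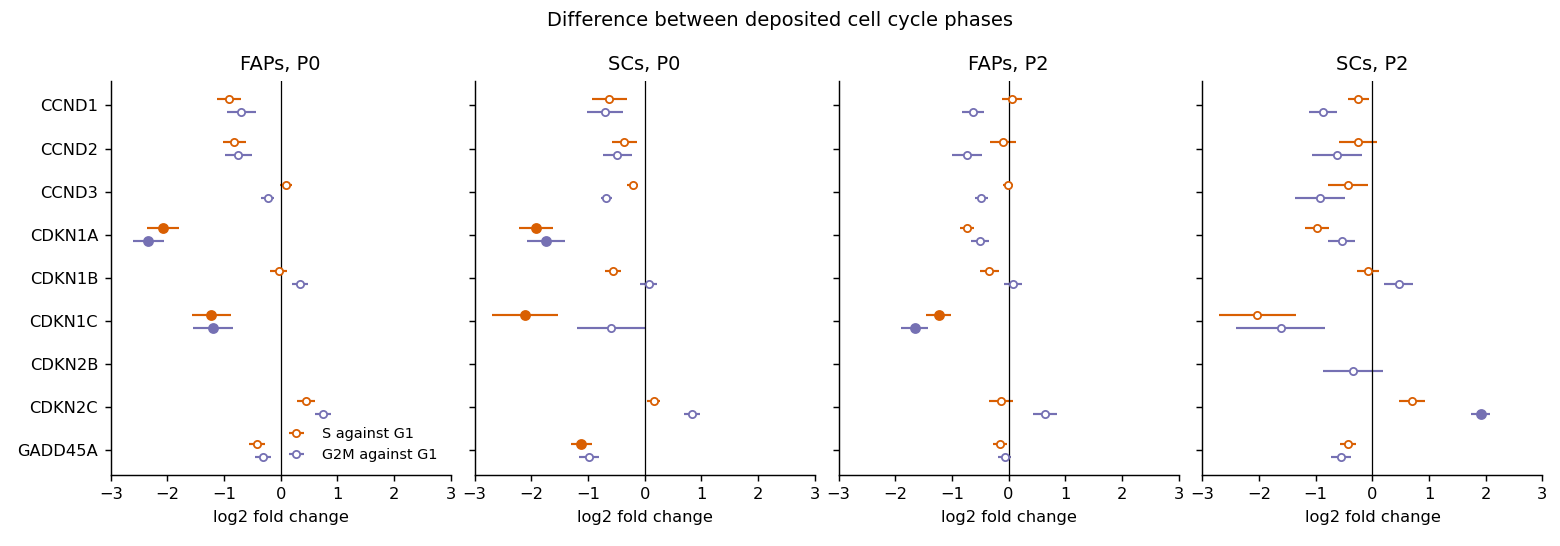
Log2 fold change of each gene in cells labelled S (orange) or G2M (violet) against cells labelled G1, in FAPs and SCs at P0 and P2; bars are SEs and filled points are called. CDKN1A and CDKN1C lie left of 0 in all panels and CDKN2C of G2M cells right of 0, up to 1.91 in P2 SCs.

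SCs at P2 were also divided by MYOG, the marker of cells committed to fusion. At least 3 UMIs of MYOG were found in 298 of 3979 SCs (7.49%, median 23881 UMIs per cell) and in 3 of 4987 FAPs (0.0602%, median 29540 UMIs). At P0 only 4 of 2282 SCs had as many, so no comparison was made there. Positive cells could be set against cells with 0 UMIs in donors 5, 6 and 10, all of SC cultures. Between these, 9.76% of all 11255 genes were called, and 2 of the 9 members, CDKN1C and CDKN2B. The call of CDKN2B is not read, for the reason given below.

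CDKN1C was 314, 312 and 104 CPM in MYOG-negative cells and 3583, 3388 and 2843 CPM in MYOG-positive cells of donors 5, 6 and 10. The positive cells thus lay far above the negative ones in each donor (log2 fold change 3.75, SE 0.46, adjusted p = 0.0039). CDKN2B went the other way, with 52, 49 and 55 UMIs in the negative cells and 1, 0 and 0 in the positive cells (adjusted p = 0.0096). This gene passed the count filter through the negative cells alone, and with 1 UMI in all of the positive cells no fold change is given and nothing is read from its call. CDKN1A was 180, 177 and 172 CPM in negative and 426, 286 and 315 CPM in positive cells without overlap, a difference of 0.96 (SE 0.15, adjusted p = 0.0037) that fell just short of the fold threshold. CCND3 was higher by 0.62 (adjusted p = 0.017) in the positive cells. CCND1, CCND2, CDKN1B, CDKN2C and GADD45A did not pass, although CCND1 was 233, 228 and 431 CPM in positive against 408, 398 and 433 CPM in negative cells. With 3 donors the calls were fragile: without donor 5 neither member was called (adjusted p of CDKN1C 0.089), without donor 6 CDKN1A alone was (1.10, adjusted p = 0.018), while the log2 fold change of CDKN1C was 3.91 and 3.95. Of the MYOG-positive cells 75.2% were labelled G1, against 53.4% of the negative ones, and 3 of 20 proliferation genes were lower in them by a call. The part of the phase in these differences was not tested.

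**Figure D5:**
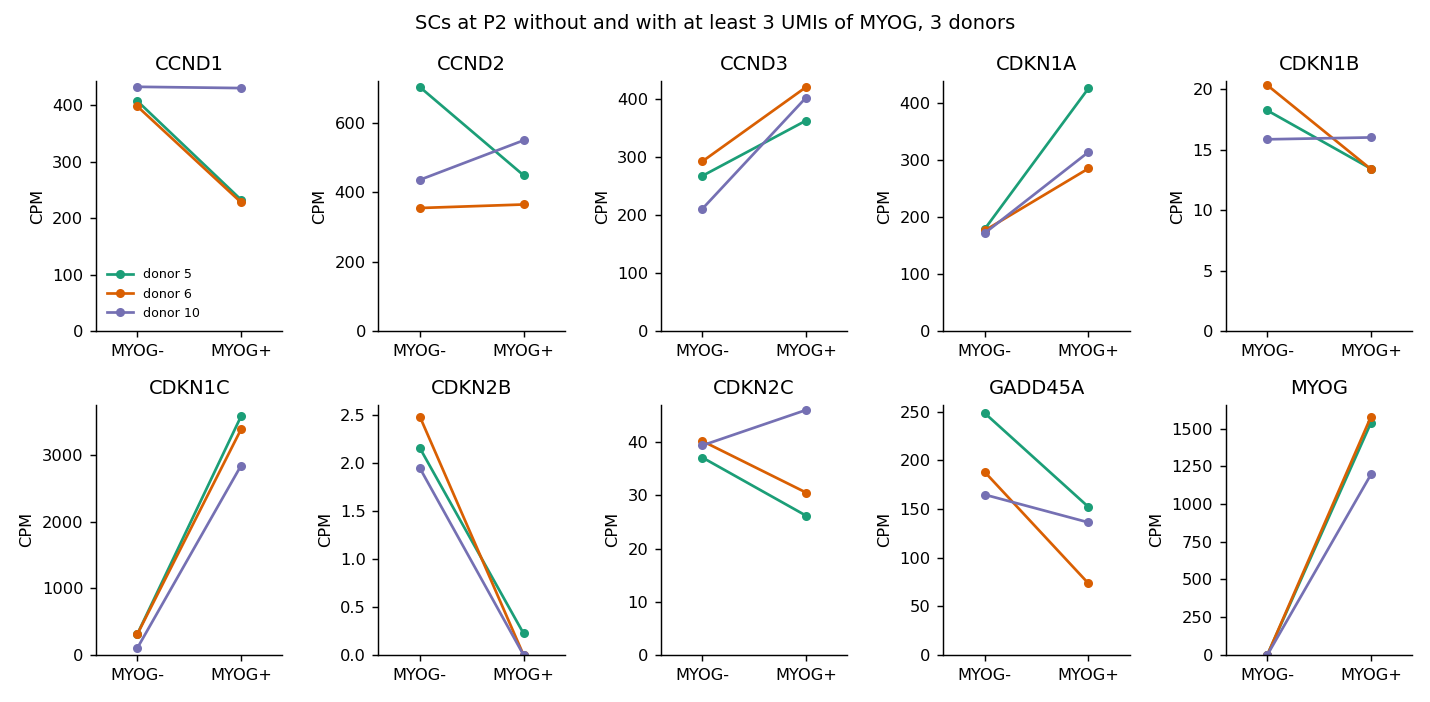
CPM of the 9 genes and MYOG in SCs of P2 without MYOG UMIs (MYOG-) and with at least 3 (MYOG+), 1 line per donor, each axis from 0. CDKN1C rises from at most 314 CPM to at least 2843 CPM. CDKN2B of MYOG+ cells, at 0 or 0.224 CPM, rests on too few UMIs to be read.

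Across the types, the order of levels was compared pair by pair in muscle and at P0, with exact sign-flip tests over the donors holding both types. Of 90 neighbouring pairs, 32 had an exact p under 0.05 and none passed after adjustment (lowest adjusted p = 0.059, where the smallest exact p that 10 donors allow is 0.002), and lower numbers of donors raise that floor. With an adjustment over 90 pairs a test so near its floor cannot show whether neighbours are alike, and the order is given as a description. Among the types of muscle with at least 5 donors, CDKN1A was highest in monocytes and macrophages (481 ± 145 CPM), followed by VECs (407 ± 173 CPM) and SMMCs (295 ± 112 CPM), and lowest in FAPs (110 ± 44.8 CPM). CDKN1B ran from 269 ± 50.4 CPM in monocytes and macrophages and 238 ± 78.6 CPM in lymphocytes down to 97.3 ± 21.0 CPM in FAPs. CCND1 was 107 ± 53.8 CPM in monocytes and macrophages and 1.04 CPM in lymphocytes, where 1 UMI was counted. CCND2 and CCND3 were at the top of these types in lymphocytes, with 174 ± 65.4 and 213 ± 64.0 CPM. All these values are means ± SD over 10 donors.

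The rare types of muscle, summed over donors and without replicates, stood out in single genes. The 12 glial cells held 1623 CPM of CDKN1C (exact Poisson interval at 95%, 1253 to 2069) and 624 CPM of CDKN1B (404 to 922). The 51 neutrophils held 607 CPM of CDKN1A (464 to 782) and 577 CPM of CCND3 (437 to 748). CDKN1C in the 23 tenocytes was 536 CPM (422 to 670). In the 45 myocytes, which held 29648 CPM of ACTA1, CDKN1A was 180 CPM (122 to 258) and CDKN1C 54.1 CPM (24.8 to 103). All these intervals cover counting error only.

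Genes with the most similar pattern were sought over 19 combinations of timepoint and type, by Pearson's r of log2(mean CPM + 1) among 9757 genes, as a description over means that share libraries. CDKN1C went with genes of the contractile apparatus, TNNC1 (r = 0.90), TNNI1 (0.89) and ACTA1 (0.89). In muscle, ACTA1 was also counted in neutrophils (638 CPM), glial cells (275 CPM) and tenocytes (98.6 CPM), and it was at 0 in glial cells of P0. The myocytes, with 29648 CPM of ACTA1, held 54.1 CPM of CDKN1C. The part of the step from muscle to culture in these r values was not tested. CCND3 went with MYOD1 (0.81), the myogenic transcription factor, ESR1 (0.79) and KLHL41 (0.79). CDKN1B had the closest companions, KANSL1 and ARID1A (both 0.97) and GPBP1 (0.96). For CCND1 they were BAG6 (0.90), FBXW5 (0.89) and BAX (0.89), for CCND2 CDV3 and TMEM65 (both 0.87) and RNF10 (0.83), and for GADD45A HMGN4 (0.88), PHLPP1 (0.86) and ZBTB18 (0.85). CDKN2B, at very low counts, went with TMEM40 (0.96), CDH1 (0.92) and PAX3 (0.92). The weakest companions were those of CDKN2C, led by the gene ENSBTAG00000006383 (0.79), RPL5 (0.77) and RPL9 (0.76), and of CDKN1A, with TSC22D2 (0.75), KDM5B and GIT2 (both 0.74).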

How the data were processed

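Per the labels and the study's methods, 1 Chromium 3′ v3.1 library per timepoint was counted by the authors with Cell Ranger 6.0.1 on ARS-UCD1.2 with an Ensembl annotation. The deposited matrices hold raw UMI counts, and the authors' cell table gave donor (demuxlet), type and phase; 12 of its columns were not used. Cells were the deposited singlets after the authors' quality control, and no other doublet caller was run. Groups follow the labels. Repeat runs of P0, P2 and P5 carry no files of their own. Counts were summed per donor and type (at least 10 cells) and tested with edgeR 4.0.16 (glmQLFit with robust fitting, glmQLFTest, TMM scaling, low counts dropped by filterByExpr, Benjamini-Hochberg adjustment over all genes tested) in R 4.3.3. SE is the absolute log2 fold change over the square root of F. The fits were tested on simulated counts. Alternatives were DESeq2 1.42.0, no filter, at least 30 cells, donors as a block, thinning, sorted cultures only and, for groups of up to 5 donors, each donor left out; G1 cells alone, unsorted cultures alone and library totals without TMM were added after the data were seen. Donors of 2 groups are the same animals, which gives the pairing: deviations of same-donor sums in muscle and P0 correlated at a median of 0.10 in FAPs, 0.037 in SCs and 0.13 in VECs. No such correlation was taken for types, phases or MYOG classes within a library or for later passages. The main fits took no account of the pairing in any comparison, and the fits with donors as a block did. Members and gene lists were chosen with earlier results of these data known. Named from the lists are the 2 called genes with the largest fold change. Coordinates and sequences are left out, since the only reference gene table belongs to another assembly. Intervals cover counting error only, and depth sets the precision, at 4184 UMIs per cell in muscle.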

Additional observations from a re-analysis of the deposited data

Results flagged for a closer look

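Among 144 groups of donors, 10 had a donor whose gap to the next one was large for the range of the group (Dixon's test), where chance flags about 1 in 20. CDKN1A was 165 CPM in P0 SCs of donor 2, from 45 cells, against at most 95.6 CPM in the others, and 579 CPM in P0 VECs of donor 9 against at most 399 CPM. CDKN1C was 223 CPM in muscle LECs of donor 10 (12 cells, 15 UMIs) and 21.6 CPM in P0 VECs of donor 5 (6 UMIs). In P5 SCs donor 9 had the highest CDKN1B, 24.6 CPM against at most 16.0 CPM, and the lowest GADD45A, 202 CPM against at least 269 CPM. CCND1 was 25.1 CPM in muscle SCs of donor 1 (4 UMIs) and 188 CPM in muscle VECs of donor 6 (45 UMIs, the next at 92.1 CPM). CDKN2C was 53.6 CPM in P0 monocytes and macrophages of donor 6 (11 UMIs), and GADD45A 143 CPM in muscle LECs of donor 4 (8 UMIs).

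By interaction terms, 5 changes differed between SCs and FAPs. From muscle to P0 the change in SCs minus that in FAPs was -1.22 for CDKN1A, 2.01 for CDKN1C and -1.63 for CDKN2C on the log2 scale, and from P0 to P2 it was 2.17 for CCND1 and 2.24 for CCND2.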

How the results depend on the processing

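Of 196 values of counts of called members under alternatives, 175 stayed within 1.5 times the main count and 21 moved. Single genes were followed only where they passed the adjusted p in the main fit. Of 783 such values, 738 kept direction and side of the threshold, 16 gained a call, 27 lost one and 2 reversed. Calls gained by genes that did not pass it, or were not tested, are outside these numbers. The reversed ones among these values are CDKN2C from muscle to P0 in thinned FAPs (-0.0034) and CDKN2C from P0 to P2 in G1-labelled FAPs (0.038). Outside them, CDKN1A from P0 to P2 changed sign as well. It fell in G1-labelled FAPs and had a small positive value, past no threshold, among all FAPs. G1-labelled cells left 2 called members in SCs from muscle to P0 (5 with all cells) and 0 in SCs against FAPs of muscle (1), where DESeq2, no filter and at least 30 cells each gave 2 (the last by adding CDKN1C). Thinning left 1 in SMMCs (4), 0 in LECs (4) and 1 for the muscle to P0 interaction (3), and most of the lost members were no longer tested. LECs without 1 donor gave 1 to 5. Unsorted cultures alone left 3 called members in SCs against FAPs of P2 (5). From P2 to P5 in SCs, donors as a block gave 1 (CCND2) and sorted cultures alone 1 (CDKN2C), against 0. From P5 to P8 in SCs, DESeq2 gave 1 (CDKN1C), against 0. In S-phase SCs of P2, DESeq2 gave 1 (CDKN1C), the block 1 (CDKN1C) and at least 30 cells 1 (CDKN2C), against 0; in G2M SCs of P2 the block gave 3 (CDKN2C, CCND3, CDKN1C), against 1. MYOG-positive cells at 1 UMI or more gave 1 called member and fits without 1 donor 0 to 2, against 2. Beyond those and the cyclin values given with the block in the text, the donor block changed no call, except that CDKN1C of LECs could not be tested with it. Library totals in place of TMM gained 1 call (CCND1 of LECs, 1.05) and lost none. They shifted the median of all genes by over 0.1 in some comparisons and by less in most, for example from 0.04 to -0.11 in FAPs from P0 to P2, and DESeq2 shifted it from 0.03 to -0.57 in FAPs from muscle to P0, where the members called stayed 4. Except where fewer genes or donors entered, the cause was not tested. The MYOG comparison at P0 and its alternatives were not run, with 4 positive cells there. CDKN2B and CCND1 of muscle SCs are limited by depth.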
